A study of Mus musculus with 20 samples.

Results

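The genes described here are 34 genes of the unfolded protein response and of protein folding in the endoplasmic reticulum (ER), read from ribosome footprints in mouse embryonic stem cells (mESCs). They are the rows of the count table whose name is on a list of ER chaperones, ER-associated degradation (ERAD) factors, sensors and secretory components that ATF6 and XBP1 are known to induce. No measured value is part of that rule, although the list was chosen with earlier results of these data known. All 34 were found among the 22416 genes of the table, which writes gene names in capitals. The cells were eIF2α A/A, with the phosphorylated serine of eIF2α replaced by alanine (KI), or eIF2α+/+ (WT). All cells were grown without serum, on KnockOut serum replacement, and all had 1000 U/mL of LIF. For 6 days they had LIF alone (LIF) or LIF with PD0325901 and CHIR99021, inhibitors of MEK and GSK3 (LIF/2i). Footprints were made with RNase I in 2 libraries or with micrococcal nuclease (MNase) in 3 libraries of each of the 4 groups KI LIF/2i, WT LIF/2i, KI LIF and WT LIF, 20 in all. Whether replicates came from separate cultures or clones is not in the labels, so p-values reflect only how these samples varied, which may be technical. Without RNA-seq, which was not used here, a footprint level combines the amount of an mRNA with its translation, and fewer cells of a type and less RNA per cell cannot be told apart.

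When unfolded proteins collect in the ER, the sensors ATF6, IRE1α and PERK start the unfolded protein response. ATF6 is cut in the Golgi to free a transcription factor, IRE1α splices the XBP1 mRNA so that it encodes one, and PERK phosphorylates eIF2α at the residue that the knock-in replaces. ATF6 and XBP1 induce chaperones, oxidoreductases and ERAD factors, while phosphorylated eIF2α slows most initiation but favours translation of ATF4. Cells that cannot phosphorylate eIF2α lack that brake on protein entry into the ER.

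ATF6 and XBP1 act through short promoter elements, so the promoters of these genes are shown where they hold one. RefSeq windows (build GRCm38.p6, 250 bases before to 50 after a transcription start) were given for 29 of the 34 members and were searched on both strands. No window was used for ATF6, HYOU1, DERL1, SEC61A1 and MANF. The ER stress response element, CCAAT and CCACG with 9 bases between them, was present in 9 of 29 members (31.0%) and in 39 of 32851 windows of all genes (0.119%). Members are counted by gene, with 31 windows among them, and were listed as genes that these factors are known to induce. The element is printed below for each of the 9 members from CCAAT to CCACG, with the paired ends in capitals and 4 flanking bases on each side.
HSPA5: ttcaCCAATcggaggcctCCACGacgg
HSP90B1, near copy: ctcaCCAATcgtgcctcaCCACGcact
HSP90B1, far copy: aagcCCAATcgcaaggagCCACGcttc
CALR: tgggCCAATgagggtcgaCCACGcgtt
CANX: ttgaCCAATcaccacgctCCACGaaga
CRELD2: tggaCCAATtgaggctcgCCACGagaa
DERL3: ctagCCAATggggaagtcCCACGgtag
DNAJC3: acaaCCAATcagcgccaaCCACGaccc
PDIA6: gagaCCAATgaaaggcggCCACGgcgt
SYVN1: gcaaCCAATcggcggtagCCACGggaa
The elements lie at chr2:34772025-34772043 (HSPA5), chr10:86705533-86705551 and chr10:86705638-86705656 (HSP90B1), chr8:84847075-84847093 (CALR), chr11:50325800-50325818 (CANX) and chr15:88819520-88819538 (CRELD2). Those of the other genes lie at chr10:75893242-75893260 (DERL3), chr14:118937827-118937845 (DNAJC3), chr12:17266491-17266509 (PDIA6) and chr19:6046532-6046550 (SYVN1). The printed letters lie on the plus strand for HSPA5, the near copy of HSP90B1, CALR, DNAJC3, PDIA6 and SYVN1, and on the minus strand for the far copy of HSP90B1, CANX, CRELD2 and DERL3. The near copy of HSP90B1 and the copies of CALR, CRELD2 and DERL3 run against their gene. A shorter form that joins CCACG to CCAAT read on the other strand, ATTGGNCCACG, was present in 2 members (6.90%) and in 12 windows of all genes (0.0365%). It is shown with its fixed letters in capitals.
DNAJB11: ggcgATTGGcCCACGcctg
HERPUD1: gctgATTGGgCCACGttgg
These copies lie on the plus strand at chr16:22857852-22857862 (DNAJB11) and chr8:94386377-94386387 (HERPUD1). The XBP1-type core TGACGTGG was present in 1 member (3.45%), SEC24D, which encodes a COPII coat subunit, and in 222 windows (0.676%).
SEC24D: cgccTGACGTGGcact
That copy lies on the plus strand at chr3:123267470-123267477. TGATGNAA, a letter pattern of ATF4 and CHOP elements, was present in HERPUD1 alone among the members and in 1304 windows (3.97%). A match is a description of these windows, and a window without one says nothing of the factor.

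**Figure D1:**
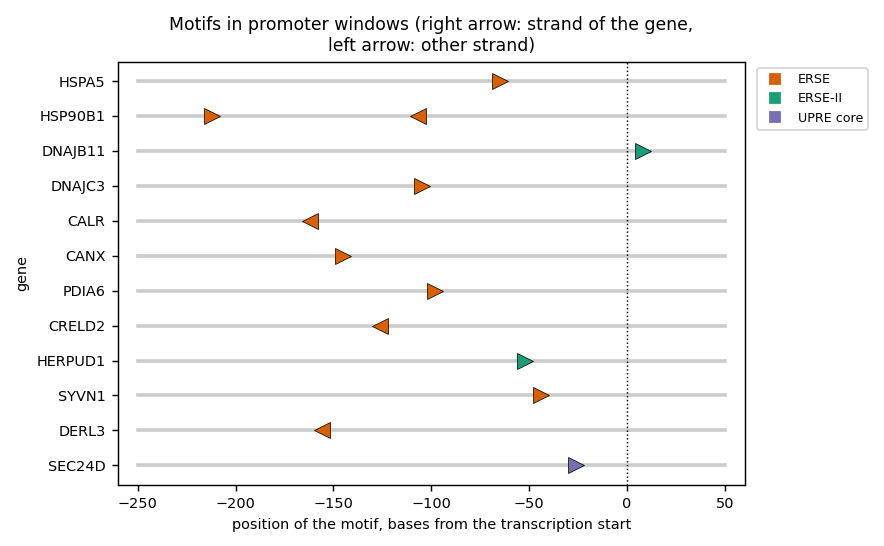
Positions of the matches in the promoter windows of the members that hold one, in bases from the transcription start (horizontal axis), with 1 row for each gene and the arrow giving the strand. All matches lie before the start except that of DNAJB11, which lies 8 bases after it.

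The MNase libraries held 6560173 to 8894080 counts in KI and 2127850 to 5461210 in WT, so depth and genotype did not overlap there. With RNase I the totals were 1965050 to 16359039 in KI and 4011036 to 22916734 in WT. In a principal component analysis of the MNase libraries, replicate 1 of KI stood apart in both media on component 3 (scores -44.4 and -45.5, against -1.01 to 21.6 in the other libraries), so members' results that move with it are also given without it in both media. Markers of embryonic stem cells (11 genes) summed, in CPM (counts scaled to a common library total), to 5148 to 5401 in KI LIF and 5489 to 7018 in WT LIF, without overlap, and to 5987 to 6580.5 in KI LIF/2i and 5995 to 6608 in WT LIF/2i. A list of 14 markers of primitive and extraembryonic endoderm, whose cells are secretory, summed to 679 to 781 CPM in KI LIF and 1203 to 1598 in WT LIF, with AFP at or near 0, and to 511 to 580 CPM in KI LIF/2i and 397 to 766 in WT LIF/2i. Markers of trophoblast (9 genes) summed to 83.5 to 111 CPM in KI LIF and 220 to 422 in WT LIF, and those of fibroblasts and feeder cells (10 genes) overlapped between genotypes in each medium. The part of these cells in the results was not tested. EIF2S1, which encodes eIF2α, averaged 158 ± 19.9 CPM in KI and 101 ± 11.2 CPM in WT in LIF/2i (SD, n = 3 each; log2 fold change 0.65, SE 0.13, edgeR adjusted p = 0.00404), and its level does not check the amino acid change.

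The first comparison asks how these genes differ between KI cells, in which eIF2α cannot be phosphorylated at this site, and WT cells in LIF/2i. With MNase, HSPA5, HSP90B1 and CALR, abundant luminal chaperones, were higher in KI by log2 fold changes of 0.57, 0.55 and 0.62, while footprints on XBP1, the transcription factor that induces ERAD and folding genes, were lower by -1.27. Of the 34 members, 18 passed edgeR's quasi-likelihood test (adjusted p under 0.05 over all 12806 genes tested), 11 higher and 7 lower in KI. The background is high: 25.4% of all genes tested passed, 13.8% higher and 11.5% lower. The members' median log2 fold change was 0.08, against 0.01 over all genes, with a range of -2.20 to 1.14. By role, 4 of 8 chaperones and cochaperones were higher and 0 lower, and so were 2 of 7 lectin chaperones and oxidoreductases. Of 10 ERAD factors, 2 were higher and 3 lower. Of 4 sensors and transcription factors, 1 was higher and 2 lower, and of 5 translocon and COPII genes, 2 were higher and 2 lower.

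In LIF the same comparison called 8 members, 5 higher and 3 lower in KI, against a background of 13.4% (7.36% higher and 6.05% lower), with a median of 0.06 against -0.01 over all genes. Of these, 7 members passed in both media: XBP1 and CREB3L2 lower, and CALR, DNAJB11, HSP90B1, SEC23B and SSR1 higher in KI. In LIF, 2 chaperones, 1 lectin chaperone and 2 translocon and COPII genes were higher, and 1 ERAD factor and 2 transcription factors were lower. No member passed the test of the genotype by medium interaction in edgeR, where 0.336% of all genes passed, and DESeq2 also called 0. At an unadjusted p under 0.05 in edgeR there were 3 members, against 1569 of 12806 genes. A gene called in one medium is therefore not shown to differ between media. In the same libraries, 8 of 11 tested endoderm markers were lower in KI LIF than in WT LIF and 0 higher, and their part in the members' differences was not tested.

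**Figure D2:**
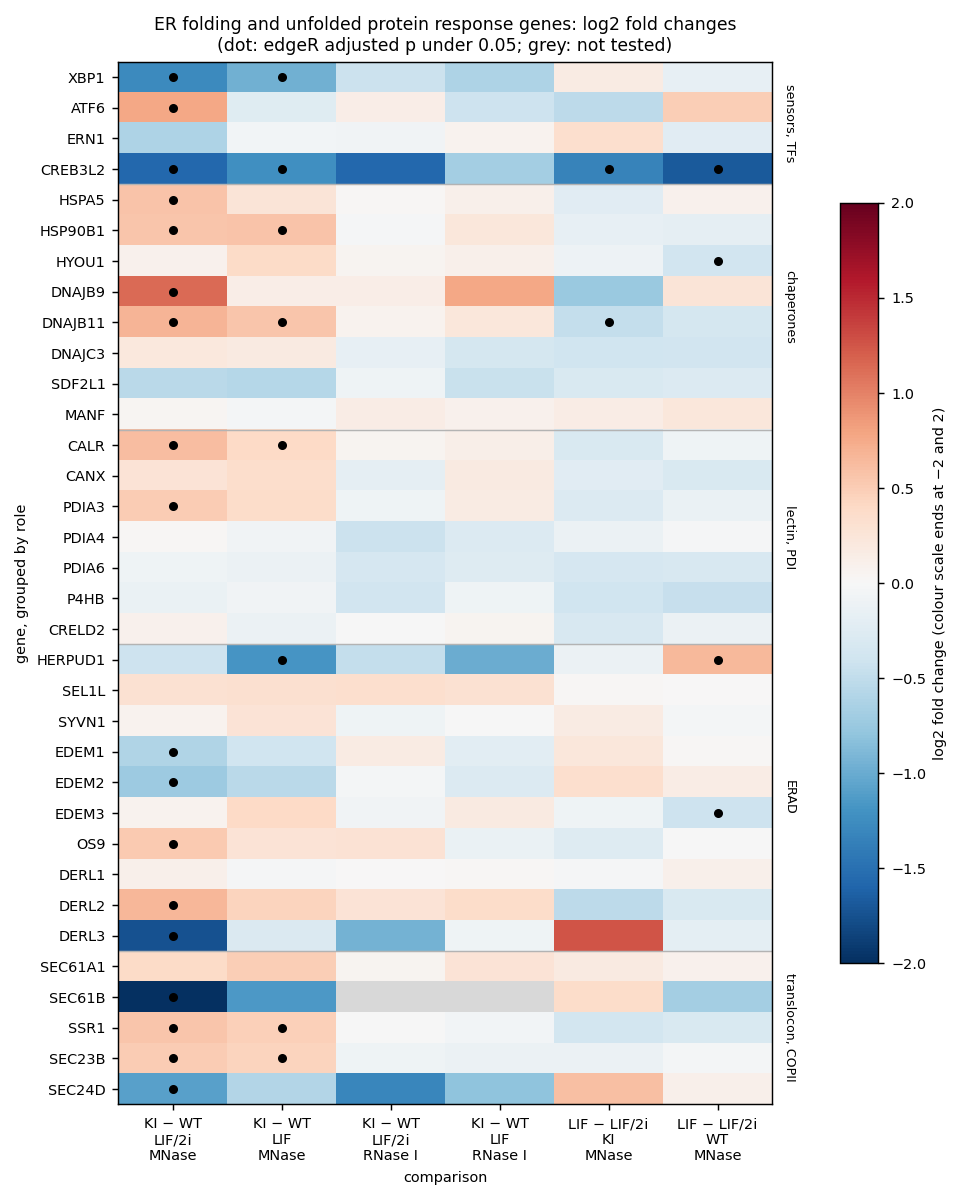
Log2 fold changes as colours (red positive, blue negative) for each member (rows, grouped by role) in 6 comparisons (columns): KI over WT in each medium with each nuclease, and LIF over LIF/2i in each genotype with MNase, where a dot marks edgeR adjusted p under 0.05. XBP1 and CREB3L2 are blue in every KI over WT column, and the red of HSPA5, HSP90B1, DNAJB11 and CALR with MNase fades with RNase I.

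Among the sensors and transcription factors, XBP1 separated the genotypes in both media. In LIF/2i its MNase level was 106, 69.9 and 83.7 CPM in KI and 210.3, 242 and 174 CPM in WT (log2 fold change -1.27, SE 0.17, edgeR adjusted p = 0.000629). In LIF it was 89.0, 103 and 96.6 CPM in KI and 218, 165 and 178 CPM in WT (log2 fold change -0.95, SE 0.17, edgeR adjusted p = 0.00465). Every KI library lay below every WT library, in either medium. With RNase I the levels were 66.0 and 60.7 CPM in KI and 82.1 and 89.3 CPM in WT in LIF/2i, and 55.5 and 64.2 CPM in KI and 96.9 and 86.2 CPM in WT in LIF. There too all 4 KI libraries lay below all 4 WT libraries, and the log2 fold changes of -0.43 and -0.61 did not pass (edgeR adjusted p = 0.328 and 0.233). The counts lie on the coding sequence of 1 transcript, so splicing of XBP1 by IRE1α cannot be read from them.

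CREB3L2, a membrane-bound transcription factor of the ATF6 type that induces secretory pathway genes, was also lower in KI. Its MNase level in LIF/2i was 24.2, 7.16 and 11.1 CPM in KI and 41.1, 40.7 and 43.5 CPM in WT (log2 fold change -1.56, SE 0.34, edgeR adjusted p = 0.00649). In LIF it was 7.22, 4.48 and 5.13 CPM in KI and 12.8, 14.6 and 11.9 CPM in WT (log2 fold change -1.22, SE 0.37, edgeR adjusted p = 0.0468). The genotypes did not overlap in either medium, and KI replicate 1 was the highest KI library in both. Without KI replicate 1 in both media the log2 fold changes were -2.20 in LIF/2i and -1.43 in LIF. RNase I gave 27.2 and 10.4 CPM in KI and 60.5 and 55.0 CPM in WT in LIF/2i, where the groups also did not overlap, with a log2 fold change of -1.57 (SE 0.41) that did not pass (edgeR adjusted p = 0.181).

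ATF6, the sensor whose cleaved form induces ER chaperones, was at 39.2, 63.7 and 52.2 CPM in KI and 27.3, 25.2 and 37.8 CPM in WT in LIF/2i with MNase. The groups did not overlap, and ATF6 was higher in KI (log2 fold change 0.77, SE 0.20, edgeR adjusted p = 0.0153). In LIF it was at 32.3, 39.6 and 36.1 CPM in KI and 45.6, 40.1 and 41.8 CPM in WT. Here every KI library lay below every WT library, with a log2 fold change of -0.23 (SE 0.20) that did not pass (edgeR adjusted p = 0.475). The interaction was -1.01 (SE 0.29, edgeR adjusted p = 0.175). When KI replicate 1 was left out of both media, the interaction of -1.10 passed (edgeR adjusted p = 0.0366), as did 3.45% of all genes. ERN1, which encodes IRE1α, was at 9.0, 11.1 and 13.1 CPM in KI and 17.4, 18.2 and 15.5 CPM in WT in LIF/2i, and in LIF at 6.45, 19.9 and 15.4 CPM in KI and 15.5, 13.8 and 14.2 CPM in WT. Its log2 fold changes of -0.61 and -0.05 did not pass (edgeR adjusted p = 0.177 and 0.939), and without KI replicate 1, the lowest KI library in both media, they were -0.49 and 0.29 and did not pass.

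**Figure D3:**
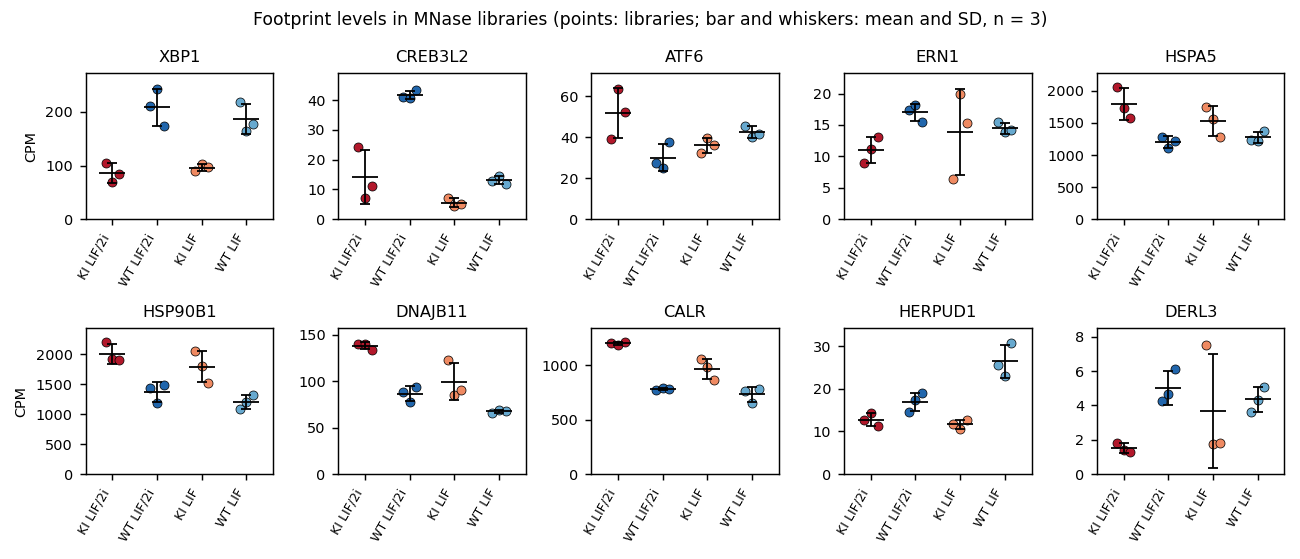
MNase footprint levels in CPM (vertical axes, from 0) of 10 members in the 4 groups; points are libraries, and bars and whiskers are the mean and SD of 3 libraries. XBP1 and CREB3L2 lie lower in KI in both media, HSP90B1, CALR and DNAJB11 lie higher, and 1 KI LIF library of DERL3 stands at 7.53 CPM.

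The chaperones and cochaperones that passed in the fit of all MNase libraries were higher in KI. HSPA5 encodes BiP, the HSP70 of the ER that also holds the sensors inactive. In LIF/2i it was at 2058, 1739 and 1577 CPM in KI and 1287, 1112 and 1211 CPM in WT, without overlap (log2 fold change 0.57, SE 0.13, edgeR adjusted p = 0.00866). In LIF it was at 1741, 1565 and 1288 CPM in KI and 1232, 1219.5 and 1378 CPM in WT, where 1 WT library lay above the lowest KI library, and the log2 fold change of 0.26 did not pass (edgeR adjusted p = 0.211); without KI replicate 1 it was 0.16. HSP90B1, or GRP94, is the HSP90 of the ER lumen. Its level in LIF/2i was 2204, 1930.4 and 1904 CPM in KI and 1434, 1186 and 1494 CPM in WT (log2 fold change 0.55, SE 0.13, edgeR adjusted p = 0.0106). In LIF it was 2054, 1801 and 1527 CPM in KI and 1087, 1208 and 1318 CPM in WT (log2 fold change 0.57, SE 0.13, edgeR adjusted p = 0.0149). The genotypes did not overlap in either medium.

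DNAJB11 is a BiP cochaperone of the HSP40 family. It was at 140.1, 140.4 and 134 CPM in KI and 88.9, 77.4 and 93.3 CPM in WT in LIF/2i, and in LIF at 123, 85.1 and 90.9 CPM in KI and 66.1, 69.1 and 67.4 CPM in WT. KI lay above WT without overlap in both, by 0.67 (SE 0.14, edgeR adjusted p = 0.00572) and 0.56 (SE 0.15, edgeR adjusted p = 0.0243). DNAJB9, a cochaperone that represses IRE1α and targets misfolded proteins, was higher in KI in LIF/2i. It was at 6.86, 6.39 and 7.33 CPM in KI and 3.19, 2.93 and 3.19 CPM in WT (log2 fold change 1.14, SE 0.30, edgeR adjusted p = 0.0158), and its libraries overlapped in LIF. DNAJB9 had raw counts of only 7 to 52 in the MNase libraries, and its call was lost with thinned counts. The other members of this class, the nucleotide exchange factor HYOU1, the BiP cochaperone DNAJC3, SDF2L1 and the secreted factor MANF, did not pass in either medium. HYOU1 was at 361, 439 and 411 CPM in KI and 288, 306 and 338 CPM in WT in LIF, without overlap (log2 fold change 0.38, SE 0.12, edgeR adjusted p = 0.06). There it passed in 3 alternative fits, higher in KI: with DESeq2, with an additive replicate block (0.38, edgeR adjusted p = 0.0312) and without KI replicate 1 (0.45, edgeR adjusted p = 0.0092). SDF2L1, which binds ERdj cochaperones, was at 58.6, 29.5 and 27.6 CPM in KI and 48.2, 65.9 and 53.5 CPM in WT in LIF/2i. KI replicate 1 lay inside the WT range, and the difference of -0.54 (edgeR adjusted p = 0.176) became -0.97 (edgeR adjusted p = 0.00463) without KI replicate 1.

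Of the lectin chaperones and oxidoreductases, CALR and PDIA3 passed. CALR encodes calreticulin, which holds newly made glycoproteins. It was at 1207, 1183 and 1210.1 CPM in KI and 771, 789 and 777 CPM in WT in LIF/2i (log2 fold change 0.62, SE 0.11, edgeR adjusted p = 0.00182), and at 1053, 982 and 869 CPM in KI and 763, 656 and 780.0 CPM in WT in LIF (log2 fold change 0.40, SE 0.11, edgeR adjusted p = 0.0249). All 6 KI libraries lay above all 6 WT libraries. PDIA3, the disulfide isomerase that works with calreticulin and calnexin, was at 2224, 1696 and 1643 CPM in KI and 1284, 1345 and 1274 CPM in WT in LIF/2i (log2 fold change 0.51, SE 0.17, edgeR adjusted p = 0.0402). Its KI replicate 1 was the highest library of that group, and in LIF the levels were 2007, 1307 and 1271 CPM in KI and 1106, 1243 and 1199 CPM in WT (log2 fold change 0.37, edgeR adjusted p = 0.163). The values without KI replicate 1 were 0.36 in LIF/2i, which passed (edgeR adjusted p = 0.0107), and 0.12 in LIF, which did not.

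P4HB, the classical protein disulfide isomerase, was at 940.0, 494 and 486 CPM in KI and 657, 786 and 653 CPM in WT in LIF/2i. KI replicate 1 lay above every WT library and the other KI libraries below them. With all libraries its log2 fold change was -0.13 (edgeR adjusted p = 0.747), and without KI replicate 1 it was -0.51 (edgeR adjusted p = 0.00573). In LIF the values were -0.08 with all libraries and -0.41 without that replicate (edgeR adjusted p = 0.877 and 0.0275). PDIA4, another disulfide isomerase, was at 393, 634 and 636 CPM in KI and 542, 559.8 and 533 CPM in WT, where KI replicate 1 was below the rest; its log2 fold change of 0.03, and that of 0.22 without KI replicate 1, did not pass. CANX, the membrane-bound lectin calnexin, was at 2092, 1647 and 1602 CPM in KI and 1507, 1405 and 1528 CPM in WT in LIF/2i, and in LIF at 1949.7, 1378 and 1250.2 CPM in KI and 1079.9, 1263 and 1248 CPM in WT. KI lay above WT in LIF/2i, and in LIF 1 WT library lay above the lowest KI library. Its differences of 0.27 and 0.35 did not pass (edgeR adjusted p = 0.234 and 0.165). KI replicate 1 was the highest library in both media, and without it the difference was 0.13 in each. PDIA6, an isomerase that damps the sensors, and CRELD2, a secretory factor induced by ER stress, did not pass in either medium, with log2 fold changes of -0.08 and 0.08 in LIF/2i. Those of PDIA6 without KI replicate 1 were -0.30 in LIF/2i and -0.35 in LIF, against -0.11 in LIF with all libraries, and neither passed (edgeR adjusted p = 0.074 and 0.0565).

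Among the ERAD factors, which recognise misfolded glycoproteins and carry them to the cytosol, members differed in direction. DERL2, a channel component of retrotranslocation, was at 46.4, 48.3 and 37.2 CPM in KI and 30.1, 26.1 and 27.3 CPM in WT in LIF/2i (log2 fold change 0.66, SE 0.20, edgeR adjusted p = 0.0309). OS9, a lectin that brings glycoproteins to the HRD1 ligase, was at 46.5, 43.5 and 50.5 CPM in KI and 29.0, 31.4 and 36.6 CPM in WT (log2 fold change 0.53, SE 0.16, edgeR adjusted p = 0.027). Both were higher in KI without overlap.

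The mannosidase-like proteins EDEM1 and EDEM2, which mark glycoproteins for degradation, were lower in KI. EDEM1 was at 53.4, 37.5 and 40.2 CPM in KI and 60.6, 68.3 and 70.0 CPM in WT in LIF/2i (log2 fold change -0.60, SE 0.17, edgeR adjusted p = 0.0222), and EDEM2 at 30.7, 33.2 and 30.9 CPM in KI and 42.5, 65.9 and 49.1 CPM in WT (log2 fold change -0.73, SE 0.19, edgeR adjusted p = 0.0141). In LIF, EDEM1 was at 61.5, 49.4 and 42.3 CPM in KI and 67.4, 68.8 and 65.3 CPM in WT, and EDEM2 at 31.0, 44.7 and 43.9 CPM in KI and 63.8, 58.2 and 53.4 CPM in WT. The genotypes did not overlap there for either gene, and the log2 fold changes of -0.40 and -0.55 did not pass (edgeR adjusted p = 0.142 and 0.0705). With KI replicate 1 left out, EDEM1 passed in LIF (-0.55, edgeR adjusted p = 0.0096) and EDEM2 did not (-0.39, edgeR adjusted p = 0.113), while EDEM2 passed in LIF with DESeq2 and with thinned counts. DERL3, a derlin of secretory cells, was at 1.83, 1.41 and 1.27 CPM in KI and 4.25, 4.69 and 6.14 CPM in WT in LIF/2i (log2 fold change -1.74, SE 0.54, edgeR adjusted p = 0.0328). DERL3 had raw counts of only 8 to 49 in the MNase libraries, and this call was lost in 5 of 6 fits with 1 library left out. In LIF, KI replicate 1 was at the top of 7.53, 1.73 and 1.78 CPM in KI, against 3.65, 4.33 and 5.09 CPM in WT, and the log2 fold change of -0.29 did not pass (edgeR adjusted p = 0.746). Without that replicate in both media it was -1.33 and passed (edgeR adjusted p = 0.0161).

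HERPUD1, a membrane adaptor of the HRD1 complex, passed in LIF and not in LIF/2i. It was at 11.8, 10.6 and 12.7 CPM in KI and 25.5, 23.0 and 30.7 CPM in WT in LIF (log2 fold change -1.18, SE 0.20, edgeR adjusted p = 0.00312). In LIF/2i it was at 12.7, 14.3 and 11.3 CPM in KI and 14.5, 17.3 and 18.9 CPM in WT (log2 fold change -0.41, edgeR adjusted p = 0.145). The groups were apart in both media, narrowly in LIF/2i, and the interaction of -0.77 did not pass (edgeR adjusted p = 0.293). With RNase I in LIF the levels were 11.7 and 13.0 CPM in KI and 25.6 and 23.3 CPM in WT, a log2 fold change of -0.99 (SE 0.30) that did not pass (edgeR adjusted p = 0.251). EDEM3, the ligase SYVN1 (HRD1), its partner SEL1L and DERL1 passed in neither medium, although DESeq2 called EDEM3 in LIF. SEL1L was at 104, 72.4 and 76.5 CPM in KI and 59.5, 70.0 and 75.6 CPM in WT in LIF/2i, and in LIF at 124, 68.2 and 65.5 CPM in KI and 62.0, 68.3 and 74.8 CPM in WT. Its log2 fold changes were 0.30 and 0.32 with MNase in LIF/2i and LIF and 0.33 and 0.30 with RNase I, and none passed. These values rest on KI replicate 1, which lay above the other KI libraries in all 4 settings. Without it they were 0.12 and -0.04 with MNase and -0.16 and 0.01 with RNase I.

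In the translocon and the COPII coat, which take proteins into and out of the ER, SEC23B and SSR1 were higher in KI in both media. SEC23B, a COPII subunit, was at 290.0, 311 and 306 CPM in KI and 234, 206 and 194 CPM in WT in LIF/2i (log2 fold change 0.52, SE 0.11, edgeR adjusted p = 0.00636), and at 291, 251 and 292 CPM in KI and 199, 219 and 198 CPM in WT in LIF (log2 fold change 0.44, SE 0.11, edgeR adjusted p = 0.0226). SSR1, a subunit of the translocon-associated TRAP complex, was at 336, 299 and 286 CPM in KI and 208, 227 and 193 CPM in WT in LIF/2i (log2 fold change 0.55, SE 0.13, edgeR adjusted p = 0.00871), and at 266, 233 and 214 CPM in KI and 147, 185 and 177 CPM in WT in LIF (log2 fold change 0.48, SE 0.13, edgeR adjusted p = 0.0273). Neither gene overlapped between genotypes.

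SEC24D, a cargo-binding COPII subunit, was at 38.3, 45.6 and 41.6 CPM in KI and 55.2, 118 and 93.6 CPM in WT in LIF/2i (log2 fold change -1.09, SE 0.34, edgeR adjusted p = 0.034). WT replicate 1 was the lowest WT library in both media, and in LIF the genotypes overlapped. SEC61B, the small β subunit of the translocon, was near the limit of counting, with raw counts of 3 to 21 in the MNase libraries. It was at 0.457, 0.767 and 1.55 CPM in KI and 5.31, 4.69 and 3.19 CPM in WT in LIF/2i (log2 fold change -2.20, SE 0.54, edgeR adjusted p = 0.0114). The channel subunit SEC61A1 was at 445, 324 and 317 CPM in KI and 292, 285 and 257 CPM in WT in LIF/2i, and in LIF at 545, 313 and 375 CPM in KI and 251, 327 and 302 CPM in WT. Its differences of 0.38 and 0.48 did not pass (edgeR adjusted p = 0.163 and 0.114). KI replicate 1 was the highest library in both media, and without it they were 0.21 and 0.22.

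The number of members called changed with the libraries used. With MNase replicates 1 and 2 alone, 1 member passed in LIF/2i (XBP1, log2 fold change -1.37, edgeR adjusted p = 0.0362; 2.05% of all genes passed). In LIF 0 members passed, where 0.0715% of all genes passed. At an unadjusted p under 0.05 there were 12 members in LIF, against 2153 of 12583 genes. With all MNase libraries but the counts thinned to the smallest, 14 members passed in LIF/2i and 8 in LIF, against 22.2% and 12.1% of all genes. Leaving out KI replicate 1 in both media gave 20 and 12 members, against 39.1% and 26.7%. Leaving out 1 library of the compared groups at a time gave 8 to 17 members in LIF/2i, reaching 8 when WT LIF/2i replicate 2 was left out (17.7% of all genes passed) and 10 when KI LIF/2i replicate 2 was (12.2%). In LIF it gave 2 to 8, with 2 without WT LIF replicate 1 (5.49% of all genes) and 4 without WT LIF replicate 3 (6.79%). It gave 5 without WT LIF replicate 2 (7.16%) or without KI LIF replicate 2 (8.85%). Whichever library was left out, 7 of the 18 members kept their call in LIF/2i, namely XBP1, CREB3L2, HSPA5, DNAJB11, CALR, SEC23B and SSR1, and 2 of the 8 in LIF, XBP1 and HERPUD1. The other 11 members in LIF/2i and 6 in LIF kept their sign and lost their call in at least 1 such fit, with edgeR adjusted p of at most 0.128 in LIF/2i and 0.142 in LIF. For HSP90B1 the library was WT replicate 2 in LIF/2i (edgeR adjusted p = 0.0506) and WT replicate 1 in LIF (0.0705), and for EDEM2 it was WT LIF/2i replicate 2 (0.0645). ATF6 lost its call without WT LIF/2i replicate 1 or 2 or without KI LIF/2i replicate 2 (at most 0.0803). With both nucleases fitted together, SEC23B and SSR1 lost their calls in both media, and HSP90B1, EDEM1 and PDIA3 theirs in LIF/2i.

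With RNase I, 33 members were tested (SEC61B was too low), and most log2 fold changes were small. None passed between KI and WT in edgeR in LIF/2i or in LIF, where 0.232% and 0.116% of all genes passed. At an unadjusted p under 0.05 there were 3 members in each medium, against 1554 of 12095 genes in LIF/2i and 1613 in LIF. DESeq2 called 1 in LIF/2i, CREB3L2, and 0 in LIF, against 2.27% and 1.67% of all genes. Without KI replicate 1 in both media, which leaves 1 KI library in each medium, CREB3L2 (-2.50) and PDIA6 (-0.66) passed in LIF/2i, both lower in KI, and 0 in LIF (4 at an unadjusted p under 0.05), against 4.5% and 1.27% of all genes. The members' medians were -0.04 in LIF/2i and -0.01 in LIF. HSPA5 was at 1713 and 1562 CPM in KI and 1625 and 1599.8 CPM in WT in LIF/2i, with the WT libraries between the KI ones (log2 fold change 0.02, SE 0.12). HSP90B1 was at 2133 and 1777 CPM in KI and 2025 and 1952 CPM in WT (-0.02, SE 0.13). CALR was at 1339 and 1367 CPM in KI and 1247 and 1365 CPM in WT (0.05, SE 0.12). In LIF/2i the genotypes overlapped for all 3 chaperones. In LIF, HSPA5 was at 1681 and 1692 CPM in KI and 1544 and 1609 CPM in WT (log2 fold change 0.10, SE 0.12). HSP90B1 was there at 1978 and 1915 CPM in KI and 1657 and 1687 CPM in WT (0.22, SE 0.13), and CALR at 1317 and 1304 CPM in KI and 1222 and 1205 CPM in WT (0.11, SE 0.12). Every KI library lay above every WT library in LIF for these 3 genes, and none of the differences passed (edgeR adjusted p = 0.757, 0.493 and 0.722). With 2 libraries in each group, 15 of 33 members did not overlap in that comparison, in either direction, and 0 of them passed. The share over all genes was not counted, so this count is not read as a trait of the members. SEC24D had the largest shift after CREB3L2, at 27.8 and 28.7 CPM in KI and 47.4 and 92.4 CPM in WT in LIF/2i (log2 fold change -1.30, SE 0.44, edgeR adjusted p = 0.276). It lay lower in KI without overlap there, as with MNase. EDEM1 and EDEM2, lower in KI with MNase, had log2 fold changes of 0.17 and -0.04 with RNase I in LIF/2i.

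**Figure D4:**
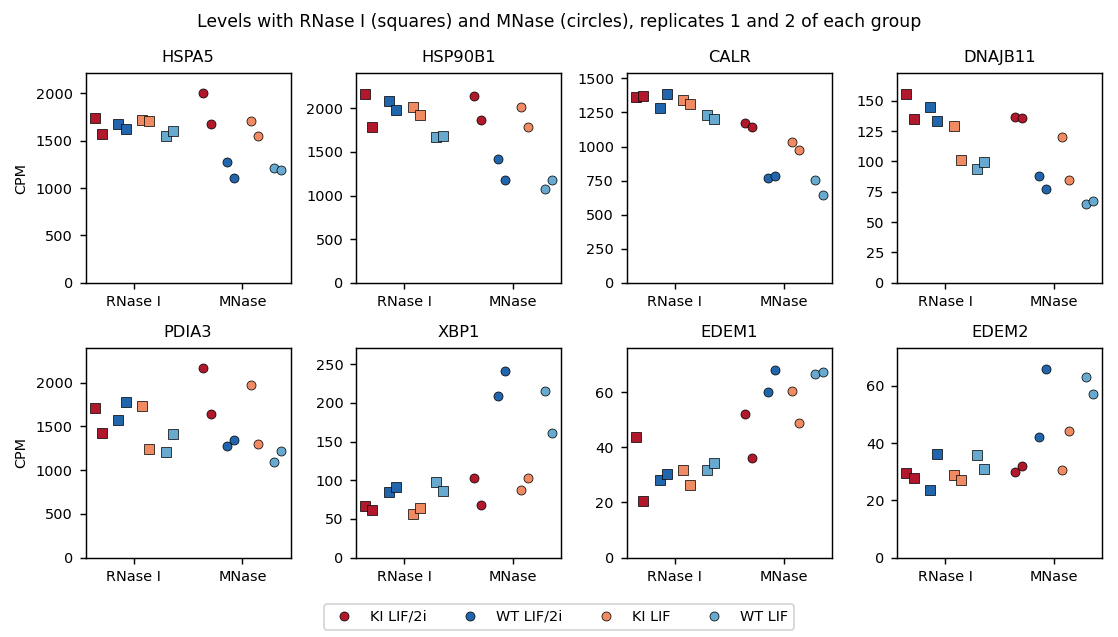
Footprint levels in CPM (vertical axes, from 0) of 8 members with RNase I (squares) and MNase (circles), for replicates 1 and 2 of each group on 1 common scale. The KI and WT points of HSPA5, HSP90B1 and CALR lie apart with MNase in both media, overlap with RNase I in LIF/2i and lie apart by less with RNase I in LIF, while XBP1 is lower in KI with both nucleases.

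Replicates 1 and 2 of each group were used to test whether the genotype difference itself depended on the nuclease. Without a block for the replicate, 0 members passed in LIF/2i in edgeR, where 0% of all genes passed. At an unadjusted p under 0.05 there were 9 members, against 1117 of 12732 genes. In LIF 0 members passed in edgeR, with 5 at an unadjusted p under 0.05, against 372 of 12732 genes. DESeq2 called 2 in LIF/2i (CALR and HSPA5; 0.62% of all genes) and 0 in LIF. Libraries of the same number deviated together between the nucleases (correlations of 0.486 to 0.711), and with the replicate as a block 14 members passed in LIF/2i and 2 in LIF. Of all genes, 15.3% passed in LIF/2i (6.33% higher and 8.95% lower) and 0.738% in LIF. In that fit the log2 fold change of KI over WT in LIF/2i was lower with RNase I for HSP90B1 (difference -0.67, edgeR adjusted p = 0.000774), HSPA5 (difference -0.62, edgeR adjusted p = 0.00124) and CALR (difference -0.54, edgeR adjusted p = 0.00281). It was less negative with RNase I for XBP1 (difference 0.95, edgeR adjusted p = 0.00137). The blocked fit without KI replicate 1 in both media called 17 members in LIF/2i and 4 in LIF, against 24.8% and 4.46% of all genes. HSP90B1, HSPA5, CALR and XBP1 were among the 17, with differences of -0.72, -0.58, -0.53 and 1.20. Without the block and that replicate, 0 members passed in edgeR in either medium (11 in LIF/2i and 3 in LIF at an unadjusted p under 0.05; 0.0384% of all genes passed in LIF/2i).

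Across genotypes and media, the nucleases gave different levels for many members. Of the 34, 17 passed, 14 higher and 3 lower with RNase I, against 30.1% of all genes (14.8% higher and 15.3% lower), with a median log2 fold change of 0.28. With the replicate as a block 27 passed, 22 higher and 5 lower, against 54.3% (28.1% higher and 26.3% lower). When KI replicate 1 was left out in both media the counts were 22 without the block and 28 with it, against 29.7% and 52.1%. CALR was between 1199 and 1386 CPM (median 1329) with RNase I and between 642 and 1175 CPM (median 879.6) with MNase (n = 8 each; log2 fold change 0.56, SE 0.06, edgeR adjusted p = 2.21e-05), and these ranges did not overlap. OS9 and ATF6 were also higher with RNase I, by 0.71 (edgeR adjusted p = 0.00019) and 0.65 (edgeR adjusted p = 0.000734).

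The 3 members that were lower with RNase I were XBP1, EDEM1 and EDEM2, and all 3 were also lower in KI than in WT with MNase in LIF/2i. Replicates 1 and 2 of WT LIF/2i with MNase are subtracted in both comparisons, so the 2 differences are not independent. XBP1 was between 56.6 and 97.4 CPM (median 75.8) with RNase I and between 67.5 and 242 CPM (median 132) with MNase (log2 fold change -0.86, SE 0.11, edgeR adjusted p = 7.29e-05), with overlapping ranges, and the lowest MNase libraries were those of KI. EDEM1 was between 20.5 and 43.7 CPM (median 31.1) with RNase I and between 36.1 and 68.1 CPM (median 60.3) with MNase (log2 fold change -0.87, SE 0.15, edgeR adjusted p = 0.000772), and EDEM2 was between 23.7 and 36.3 CPM (median 29.1) with RNase I and between 29.8 and 65.8 CPM (median 43.2) with MNase (log2 fold change -0.56, SE 0.13, edgeR adjusted p = 0.00687).

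To set the nuclease and genotype differences side by side without shared libraries, the RNase I over MNase ratio was taken from WT LIF cells and the KI over WT ratio from MNase in LIF/2i. Over the 34 members Pearson's r between these log2 ratios was 0.571 and Spearman's rho 0.549, against 0.205 and 0.258 over 12587 genes. With the media exchanged the values were 0.555 and 0.406, against 0.159 and 0.224. Members with more RNase I than MNase footprints in WT thus tended to have more MNase footprints in KI, as a description across genes that share libraries and are not independent. Depth also differed between the KI and WT MNase libraries, and its part in this pattern was not tested.

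**Figure D5:**
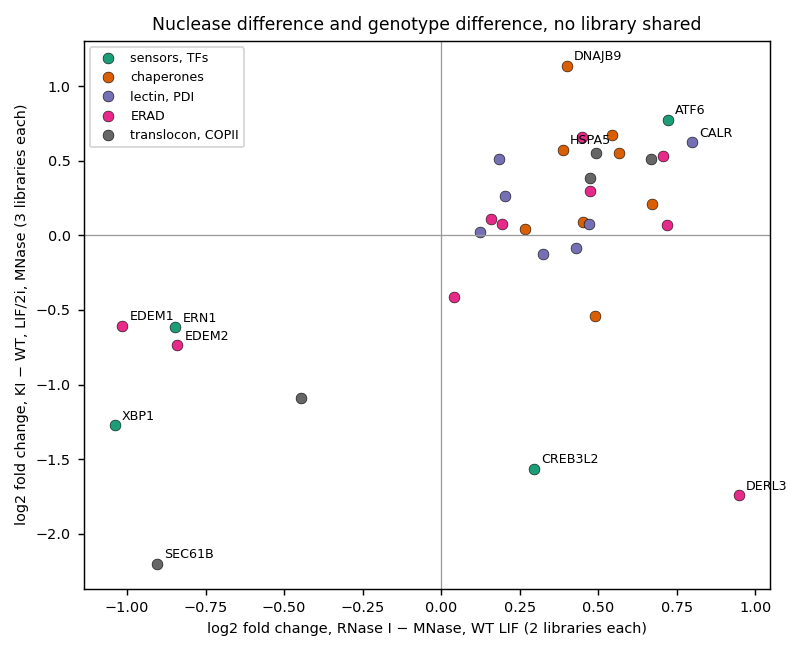
Log2 ratio of RNase I over MNase footprints in WT LIF cells (horizontal axis) beside the log2 ratio of KI over WT with MNase in LIF/2i (vertical axis), 1 point for each member, coloured by role, with no library in both axes. The 6 members left of 0, among them XBP1, EDEM1 and EDEM2, all lie below 0 on the vertical axis, while CREB3L2 and DERL3 lie at the lower right.

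The response to 6 days without the inhibitors asks how these genes differ between LIF and LIF/2i within each genotype. With MNase it called 2 of 34 members (5.88%) in KI, 0 higher and 2 lower in LIF, where 18.7% of all genes passed (8.37% higher and 10.3% lower). In WT it called 4 (11.8%), 1 higher and 3 lower, where 21% passed (9.99% higher and 11% lower). The medians were -0.14 in KI and -0.13 in WT. CREB3L2 was lower in LIF in both genotypes, at 7.22, 4.48 and 5.13 CPM in LIF and 24.2, 7.16 and 11.1 CPM in LIF/2i in KI (log2 fold change -1.33, SE 0.36, edgeR adjusted p = 0.0203). In WT it was at 12.8, 14.6 and 11.9 CPM in LIF and 41.1, 40.7 and 43.5 CPM in LIF/2i (log2 fold change -1.67, SE 0.36, edgeR adjusted p = 0.00545). In KI, replicate 1 in LIF at 7.22 CPM lay just above replicate 2 in LIF/2i at 7.16 CPM, and in WT the media did not overlap. Without KI replicate 1 in both media the value in KI was -0.91 (edgeR adjusted p = 0.0187), and 8 members passed in KI and 9 in WT, against 25% and 32.3% of all genes. With RNase I in WT, CREB3L2 was the 1 member called, at 14.2 and 19.1 CPM in LIF and 60.5 and 55.0 CPM in LIF/2i (log2 fold change -1.80, SE 0.43, edgeR adjusted p = 0.0267; 13.6% of all genes passed).

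The other members called in KI or WT moved less. DNAJB11 was at 123, 85.1 and 90.9 CPM in LIF and 140.1, 140.4 and 134 CPM in LIF/2i in KI (log2 fold change -0.47, SE 0.14, edgeR adjusted p = 0.0335), without overlap. HERPUD1 was at 25.5, 23.0 and 30.7 CPM in LIF and 14.5, 17.3 and 18.9 CPM in LIF/2i in WT (log2 fold change 0.64, SE 0.20, edgeR adjusted p = 0.0351), also without overlap. HYOU1, the nucleotide exchange factor of BiP, was at 288, 306 and 338 CPM in LIF and 382, 402 and 432 CPM in LIF/2i in WT (log2 fold change -0.38, SE 0.12, edgeR adjusted p = 0.0426). EDEM3 was at 38.3, 48.2 and 43.4 CPM in LIF and 59.5, 60.7 and 53.5 CPM in LIF/2i in WT (log2 fold change -0.41, SE 0.13, edgeR adjusted p = 0.0443). Both were lower in LIF without overlap. With 1 library left out, the call of CREB3L2 in WT held in every fit, while those of HERPUD1, HYOU1 and EDEM3 in WT and of CREB3L2 and DNAJB11 in KI were lost in at least 1, with edgeR adjusted p of at most 0.166 in WT and 0.139 in KI. The counts were then 0 to 11 members in KI, with 11 without KI LIF replicate 1 (21.7% of all genes passed) and 0 without KI LIF replicate 2 or 3 (12.9% and 11.5%). In WT they were 1 to 4, where 12.8% to 18.6% of all genes passed. In KI with RNase I, 0 members passed in edgeR, where 3.46% of all genes passed, and 0 by DESeq2. At an unadjusted p under 0.05 in edgeR there were 3 members, against 2257 of 12095 genes.

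Between media, the deviations of KI replicates of the same number correlated at 0.563, 0.315 and 0.393. Replicates 2 and 3 correlated as much across numbers (0.367 and 0.404). Deviations are from the mean of 3 libraries, so a far replicate 1 moves replicates 2 and 3 the same way. Whether KI replicates 2 and 3 pair by number therefore cannot be read from these values. A replicate block within genotype raised the KI count to 11 of 34 (32.4%), against 28.1% of all genes (13.2% higher and 14.8% lower). In that fit SEC24D was higher in LIF (0.61). DNAJB11 (-0.49), CALR (-0.31), PDIA3 (-0.30), SSR1 (-0.37), ATF6 (-0.50) and P4HB (-0.39) were among the 10 that were lower. The same block gave 8 members (23.5%) in WT, against 28.7% of all genes, where the numbers did not pair the libraries.

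Genes around the members were read from other lists of the pathway. Of 92 tested genes from a list of other ER folding, glycosylation and secretory factors, 18 were higher (19.6%) and 13 lower (14.1%) in KI in LIF/2i, and 11 higher (12%) and 3 lower (3.26%) in LIF. Of all genes tested, 13.8% were higher and 11.5% lower in LIF/2i, and 7.36% higher and 6.05% lower in LIF. ERP44, which retains client oxidoreductases in the ER, averaged 183 ± 30.5 CPM in KI and 92.5 ± 9.92 CPM in WT in LIF/2i (SD, n = 3 each; log2 fold change 0.99, SE 0.15, edgeR adjusted p = 0.000976). STT3A, the catalytic subunit of the cotranslational oligosaccharyltransferase, averaged 567 ± 49.0 CPM in KI and 304 ± 41.2 CPM in WT (log2 fold change 0.90, SE 0.14, edgeR adjusted p = 0.0012). With RNase I in LIF/2i their log2 fold changes were -0.18 and -0.33, which did not pass. The others with the smallest p in LIF/2i were HSPA13, an HSP70 of the ER (0.80), the disulfide reductase DNAJC10 (0.69), the glucosidase II subunit GANAB (0.51) and RTCB, the ligase that joins XBP1 exons (0.51), all higher in KI. In LIF the same genes apart from ERP44 were among the 6 with the smallest p, with STT3A at 0.79 and RTCB at 0.65.

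In the PERK branch, 1 of 10 listed genes was lower in KI in LIF/2i and 6 in LIF, against 11.5% and 6.05% of all genes, and none was higher. The lower gene in LIF/2i was EIF2AK3, which encodes PERK, at 18.4 ± 4.27 CPM in KI and 41.9 ± 7.93 CPM in WT (log2 fold change -1.18, SE 0.28, edgeR adjusted p = 0.00929). In LIF, ATF4, whose translation rises with eIF2α phosphorylation, averaged 112 ± 26.3 CPM in KI and 244 ± 48.6 CPM in WT (log2 fold change -1.12, SE 0.19, edgeR adjusted p = 0.0031), and DDIT3, which encodes the transcription factor CHOP, was also lower (log2 fold change -2.08, SE 0.39, edgeR adjusted p = 0.00547). With RNase I in LIF the ATF4 log2 fold change was -1.06 (edgeR adjusted p = 0.182).

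As a share of all counts, the members together took 1.21 ± 0.123% in KI and 1.04 ± 0.0388% in WT in LIF/2i with MNase, and 1.12 ± 0.143% in KI and 0.957 ± 0.0565% in WT in LIF (SD, n = 3 each). With RNase I the shares were 1.26 ± 0.123% in KI and 1.31 ± 0.0569% in WT in LIF/2i, and 1.23 ± 0.0628% in KI and 1.15 ± 0.0738% in WT in LIF (SD, n = 2 each).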

How the data were processed

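The authors deposited raw counts of footprints in coding sequences, 1 transcript for each of 22416 genes, from 20 libraries. The tools, per the submitters' processing notes, were Bowtie 1.3.0, cutadapt 3.4 and UMI-tools 1.0.1. For the genome build of these counts, nothing is stated in the sources used here. The 12 MNase libraries were fitted together in R 4.3.3 with edgeR 4.0.16, with 4 group means, filterByExpr (minimum count 10), TMM normalization and the quasi-likelihood test, two-sided, adjusted by Benjamini-Hochberg over all genes tested, at a threshold of 0.05. The 8 RNase I libraries were fitted separately. The nuclease fit used replicates 1 and 2 of every group, 16 libraries, with 8 group means. Levels are CPM by TMM-adjusted library totals, log values for principal components used a prior count of 2, and the SE is the absolute log2 fold change divided by the square root of the F statistic. DESeq2 1.42.0 was an alternative (limma 3.58.1 is loaded by edgeR), beside other scalings, no filter, thinned counts, blocks and left-out libraries. Depth is in the results, and since molecular identifiers were used and libraries varied, the spread between libraries sets the errors. Libraries of the same replicate number deviated together between nucleases in all 4 groups, and the labels give no pairing. Between media this held for KI replicate 1. For KI replicates 2 and 3 it cannot be read, since their deviations from the group mean are both set against that of replicate 1. Such pairing was not seen in WT or between genotypes. Levels in every library are given for members that passed between genotypes or in the interaction and for HSPA5, ATF6, ERN1 and XBP1, then for members that passed between media. Other members that the text describes were chosen after their values were seen. The members and lists were chosen with earlier results of these data known. The fits were tested with computed counts of known change before use. Promoter windows are RefSeq's (GRCm38.p6).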

Additional observations from a re-analysis of the deposited data

Results flagged for a closer look

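The difference between KI and WT was itself compared between the nucleases on replicates 1 and 2, and with the replicate as a block it differed for 14 members in LIF/2i and 2 in LIF (edgeR adjusted p under 0.05 over all genes), where 15.3% and 0.738% of all genes passed. Values are the log2 fold change of KI over WT with RNase I minus that with MNase. In LIF/2i the KI over WT value was lower with RNase I for the chaperones HSP90B1 (-0.67), HSPA5 (-0.62), DNAJB11 (-0.66), CALR (-0.54) and CANX (-0.51). It was also lower for the oxidoreductases PDIA3 (-0.63) and PDIA6 (-0.44), for SEC23B (-0.51) and SSR1 (-0.53), and for ATF6 (-0.77). It was higher with RNase I for XBP1 (0.95), EDEM1 (0.65), EDEM2 (0.75) and SEC61B (2.47), the last on few counts. In LIF it was lower with RNase I for HSP90B1 (-0.51, edgeR adjusted p = 0.0291) and SSR1 (-0.64, edgeR adjusted p = 0.0243). Without the block none of these differences passed in edgeR, and the block rests on replicate numbers whose libraries deviated together and not on a statement in the labels. Leaving out KI replicate 1 in both media, the blocked fit called 17 members in LIF/2i and 4 in LIF, against 24.8% and 4.46% of all genes, and EDEM1 (0.29) and SEC61B (2.00) no longer passed (edgeR adjusted p = 0.345 and 0.193).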

How the results depend on the processing

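No log2 fold change of a member called in the main MNase fits or between RNase I and MNase changed sign under the alternatives run. Members called only in an alternative fit were outside that check. In LIF, DERL3 and P4HB were lower in KI without KI replicate 1. With MNase replicates 1 and 2 alone their log2 fold changes were 0.20 and 0.05. The counts of members called between KI and WT with MNase (18 in LIF/2i and 8 in LIF) stayed within 1.5 times under other scaling, DESeq2, no filter on low counts, thinned counts, both nucleases together and an additive replicate block (18 and 9, against 26.8% and 14.7% of all genes), and became 1 and 0 with replicates 1 and 2 alone, an alternative chosen after seeing the data. With both nucleases fitted together, 5 of the 18 calls in LIF/2i were lost, those of HSP90B1, EDEM1, PDIA3, SEC23B and SSR1, and HERPUD1 was called. In LIF that fit lost SEC23B and SSR1 and called EDEM3. It called 27.5% of all genes in LIF/2i and 21.7% in LIF. Leaving out 1 library gave 8 to 17 in LIF/2i (12.2% to 30.1% of all genes) and 2 to 8 in LIF (5.49% to 15.5%). For LIF against LIF/2i in KI (2 with MNase), the count, with the share of all genes called in the same fit, was 1 with library totals alone (19.1%), 4 with DESeq2 (21.1%), 1 with thinned counts (14.8%), 6 with both nucleases (26.6%), 11 with a replicate block within genotype (28.1%), 8 without KI replicate 1 in both media (25%), and 0 to 11 with 1 library left out (11 without KI LIF replicate 1, 0 without KI LIF replicate 2 or 3). In WT (4), it was 2 with library totals alone (20.8%), 1 with no filter (14.7%), 2 with thinned counts (19.6%) and 9 with both nucleases (37%). It was 8 with the replicate block within genotype (28.7%), 9 without KI replicate 1 (32.3%), and 1 to 4 with 1 library left out (12.8% to 18.6%). The interaction (0) gave 1, ATF6, with both nucleases (2.08%) or without KI replicate 1 (3.45%), and 0 to 1 with 1 library left out (0.0761% to 1.15%). With RNase I, KI against WT in LIF/2i (0) gave 1 with DESeq2 (CREB3L2; 2.27%), 2 with no filter (CREB3L2 and SEC24D; 1.9%), 2 without KI replicate 1 in both media (CREB3L2 and PDIA6; 4.5%) and 0 to 1 with 1 library left out. LIF against LIF/2i in WT (1) gave 4 without KI replicate 1 (24%), and its CREB3L2 call was lost in each fit with a library left out (0 to 0). The nuclease difference in LIF/2i (0) gave 2 with DESeq2 (0.62%), 14 with the replicate block (15.3%) and 17 with that block and without KI replicate 1 (24.8%). That in LIF (0) gave 2 (0.738%) and 4 (4.46%) in these last fits, and RNase I against MNase (17) gave 27 (54.3%) and 28 (52.1%). The fits without KI replicate 1 that use RNase I were chosen after seeing the data. The causes were not tested. Scaling by library totals moved the median of all genes in KI against WT in LIF/2i to -0.10, against 0.01. A library left alone in its group was assumed to vary like the others.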

Other observations

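In KI, replicate 1 departed from the other replicates by over 0.3 on the log2 scale, the same way in both media and with both nucleases, for 7 of 33 members (21.2%), against 18.0% of 12046 genes. PDIA6, CREB3L2, SEC61A1, SEL1L and P4HB lay above the other KI replicates, and ERN1 and PDIA4 below them. P4HB was at 869 and 571 CPM in KI replicates 1 and 2 with RNase I in LIF/2i, and PDIA4 at 372 and 605 CPM, the same order as with MNase. In WT, replicate 1 departed in this way for 1 member (3.03%), SEC24D, which lay below the others, against 2.59% of all genes.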
